A study of Mus musculus with 16 samples.

Results

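Homologous recombination rebuilds a broken DNA duplex by copying an intact sister strand, the Fanconi anaemia proteins unhook crosslinked strands at stalled replication forks, and the S-phase checkpoint kinases hold the cell cycle while both run. The transcripts of 34 genes of these pathways were followed in mouse T cells given a T cell receptor stimulus with or without CD28 costimulation. The genes were chosen by function, with earlier results of these data known. Each was read on the probe set that carries its symbol alone, taking the one with the highest mean over all arrays where a gene had several. By this rule 32 of the 34 could be read, all 32 passed the filter on dim probe sets, and they stand among 16427 tested genes (19938 genes had such a probe set). Xrcc2 and Rbbp8 had none and are not analysed here.

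The cells were naive CD4+ T cells of B6 mice, sorted as CD62L high and CD25 negative from spleen and lymph nodes, either wild type (WT) or knockout (KO) for DEC1, a basic helix-loop-helix transcription factor encoded by Bhlhe40. They were cultured for 24 h in serum-containing medium with latex beads that carried an antibody to CD3, a part of the T cell receptor, or antibodies to both CD3 and the costimulatory receptor CD28. The second stimulus is called costimulation below. Each genotype and stimulus had 4 Affymetrix arrays, giving the groups WT_CD3, WT_CD3CD28, KO_CD3 and KO_CD3CD28; no unstimulated cells were analysed here. The sources used here give neither the age of the mice nor which part of Bhlhe40 was deleted. The labels number the replicates 1 to 4 but do not say whether each is its own animal. The p-values below therefore speak to sample-to-sample spread, which can include technical spread.

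In a dividing lymphocyte most of these genes are expressed in late G1 and S phase, when a sister chromatid becomes available as a template. BRCA1 with BARD1 prepares the broken end, PALB2 and BRCA2 ready it for strand invasion, and the RAD54 motor proteins act during the invasion of the template. The Fanconi core complex marks the FANCD2-FANCI clamp with ubiquitin at a crosslink. ATR, with its activator TOPBP1 and the adaptor claspin, switches on the kinase CHK1 at stalled forks, while ATM and CHK2 respond to double-strand breaks.

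All values are log2 signals, so a difference of 1 is a doubling of the signal, and levels of different probe sets are not set against each other. Differences were tested with limma over all 16427 genes, and a gene is called where its Benjamini-Hochberg adjusted p is under 0.05. Array medians ran from 6.64 to 6.97. The number of arrays limits the precision. After each group's mean was removed, replicates 1 and 2 of all 4 groups fell apart from replicates 3 and 4 on the first principal component (39.6% of that variance), a division for which the labels give no batch. WT replicate 1 and KO replicates 2 and 4 had high Xist, a female-specific RNA, with either stimulus (10.44 to 11.36, against 5.09 to 5.80 elsewhere). Bhlhe40 checked the labels: it was at 7.0 to 8.02 in WT_CD3 and 8.55 to 10.07 in WT_CD3CD28, against 5.18 to 5.95 in KO_CD3 and 5.73 to 6.07 in KO_CD3CD28, near the level of olfactory receptor probe sets. T cell identity genes averaged 10.76 to 11.65 on the 16 arrays. Marker lists of other cells averaged 5.77 to 6.44 for B cells, 6.03 to 6.66 for myeloid and dendritic cells, 6.41 to 6.89 for CD8 and NK cells and 5.48 to 5.94 for erythroid cells and platelets. Olfactory receptor genes, which T cells are not known to use, had their 90th percentile at 5.94 to 6.35 on the arrays, and a group is called near background where at least 3 of its 4 arrays lie at or below that level. By this measure 2 to 6 of 9 B cell markers were near background, by group, as were 5 to 8 of 12 myeloid and dendritic, 4 or 5 of 10 CD8 and NK and 3 of 5 erythroid and platelet markers, so each list also held markers above it. Among the members Fancd2 alone was near background, in KO_CD3, where Exo1 on replicates 1 and 2, Clspn on 2, Eme1 on 4 and Rad51c and Rad54b on 1 also lay at or below the level.

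Because most members moved together, their promoters are shown first, as RefSeq gives them on GRCm38.p6. The table of promoters held 27 of the 32 genes, each from 250 bases before to 50 bases after the transcription start. Rad54b, Fancd2, Exo1, Nbn and Rad50 are not in it. The windows shown are those of the pair with the largest CD28 effect in wild type among these 27 (Brip1 and Clspn), of the pair whose effect was closest to 0 (Fancc and Fance), and of Eme1, which alone held the E-box bound by DEC1. Each runs 5′ to 3′ on the strand of its gene. Capitals mark matches to any of 5 motifs searched on both strands: the E2F sites TTTCCCGC and TTTGGCGC, the cell cycle element TTTGAA, the CCAAT box and the E-box CACGTG.
Brip1, chr11:86201144-86201443, minus strand: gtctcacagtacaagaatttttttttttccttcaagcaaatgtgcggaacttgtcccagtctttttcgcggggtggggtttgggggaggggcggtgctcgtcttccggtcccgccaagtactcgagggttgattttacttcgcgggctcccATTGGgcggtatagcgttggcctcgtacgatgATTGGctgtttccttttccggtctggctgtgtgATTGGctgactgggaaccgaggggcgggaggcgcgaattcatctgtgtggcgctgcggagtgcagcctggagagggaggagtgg
Clspn, chr4:126556730-126557029, plus strand: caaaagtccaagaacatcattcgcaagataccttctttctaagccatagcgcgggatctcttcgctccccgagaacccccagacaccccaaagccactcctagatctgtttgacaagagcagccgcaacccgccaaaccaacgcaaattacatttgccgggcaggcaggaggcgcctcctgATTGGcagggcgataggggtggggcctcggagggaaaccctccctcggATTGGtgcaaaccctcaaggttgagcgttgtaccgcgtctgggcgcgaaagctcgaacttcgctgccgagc
Eme1, chr11:94653694-94653993, minus strand: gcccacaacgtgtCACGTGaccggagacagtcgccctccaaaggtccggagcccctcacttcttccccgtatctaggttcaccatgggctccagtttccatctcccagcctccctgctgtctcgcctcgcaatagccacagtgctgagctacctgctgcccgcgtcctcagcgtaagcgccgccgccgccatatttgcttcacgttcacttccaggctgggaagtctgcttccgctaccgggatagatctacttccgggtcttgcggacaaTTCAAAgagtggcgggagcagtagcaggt
Fancc, chr13:63431696-63431995, minus strand: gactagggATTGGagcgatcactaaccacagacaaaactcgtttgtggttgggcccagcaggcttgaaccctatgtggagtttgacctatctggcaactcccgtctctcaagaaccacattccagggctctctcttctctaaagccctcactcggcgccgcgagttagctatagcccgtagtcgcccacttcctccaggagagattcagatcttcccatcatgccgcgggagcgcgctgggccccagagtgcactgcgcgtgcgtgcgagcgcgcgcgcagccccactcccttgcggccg
Fance, chr17:28313280-28313579, plus strand: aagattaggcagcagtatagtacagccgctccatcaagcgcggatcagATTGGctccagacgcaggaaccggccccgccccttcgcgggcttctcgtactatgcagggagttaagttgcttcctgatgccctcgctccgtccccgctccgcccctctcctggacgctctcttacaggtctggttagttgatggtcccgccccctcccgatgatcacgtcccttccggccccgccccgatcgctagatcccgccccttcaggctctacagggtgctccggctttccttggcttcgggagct

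The windows of Brip1 and Clspn hold 3 and 2 CCAAT boxes, all on the reverse strand and within 100 bases before the start. The 1 box of Fancc and that of Fance lie at positions -242 and -202, counted back from the start. Other members went the other way. Fancf (-72 and -31) and Xrcc3 (-96 and -27), not called in wild type, also held boxes within 100 bases, and the box of Fancb, called higher, lay at -201. A link between position and CD28 effect was not tested. Among the 27 genes 16 (59.3%) held a CCAAT box, as did 41.1% of all genes in the table. It was present in 12 of 21 members called higher in wild type and in 4 of 6 that were not. The E-box CACGTG was in 1 member (3.7%), Eme1, at position -237, and in 8.09% of all genes. The element TTTGAA was in Bard1 and Eme1 (7.41%, against 20.2% of all genes). A match is a run of letters and not a measured binding site.

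The E2F site TTTCCCGC, the letters that cell cycle regulators of the E2F family are known to bind, was in 5 members (18.5%), against 1.24% of all genes, and TTTGGCGC was in 0 (0.585% of all genes). Those 5 matches are shown with 20 bases on either side because they were the motif whose share was the largest multiple of that of all genes, a choice made after the counts were seen. Capitals mark the match.
Bard1, chr1:71103154-71103201, minus strand: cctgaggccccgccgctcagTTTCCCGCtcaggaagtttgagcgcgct
Brca2, chr5:150522433-150522480, plus strand: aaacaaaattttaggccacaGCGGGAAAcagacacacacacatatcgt
Chek2, chr5:110839811-110839858, plus strand: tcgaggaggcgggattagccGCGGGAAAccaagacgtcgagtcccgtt
Fancg, chr4:43010326-43010373, minus strand: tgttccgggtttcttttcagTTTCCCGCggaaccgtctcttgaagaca
Rad51c, chr11:87404932-87404979, minus strand: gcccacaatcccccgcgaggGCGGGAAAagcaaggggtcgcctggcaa

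The matches begin at position -209 in Bard1, -168 in Brca2, -152 in Chek2, -52 in Fancg and -5 in Rad51c. With a match the median CD28 effect in wild type was 1.11 (5 genes) and without one 1.18, and this difference was not tested. Exo1 and Fancd2, which rose furthest of the 32 genes, had no window and are in neither median. Fancg, which holds one, was not called in wild type.

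In wild-type cells, costimulation through CD28 was set against the T cell receptor stimulus alone. Of the 32 genes 26 rose and 0 fell, at a median log2 difference of 1.18 (2.26-fold), while the median over all tested genes was -0.03. Over all tested genes 16% were called higher and 13% lower. In 26 of the 32 genes (81.2%) the 4 arrays of one stimulus did not overlap those of the other, against 30.4% of all genes, and 19 genes rose more than 2-fold, against 2.89% of all genes. Exo1, Fancd2, Brip1 and Clspn rose furthest, and 4 genes of the Fanconi core complex were not called. When each array was centred on its median, the median of all genes moved from -0.03 to 0.06, and 69.3% rather than 55.1% of the called genes were higher. In bulk RNA, fewer cells of a type and less RNA per cell cannot be told apart.

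**Figure D1:**
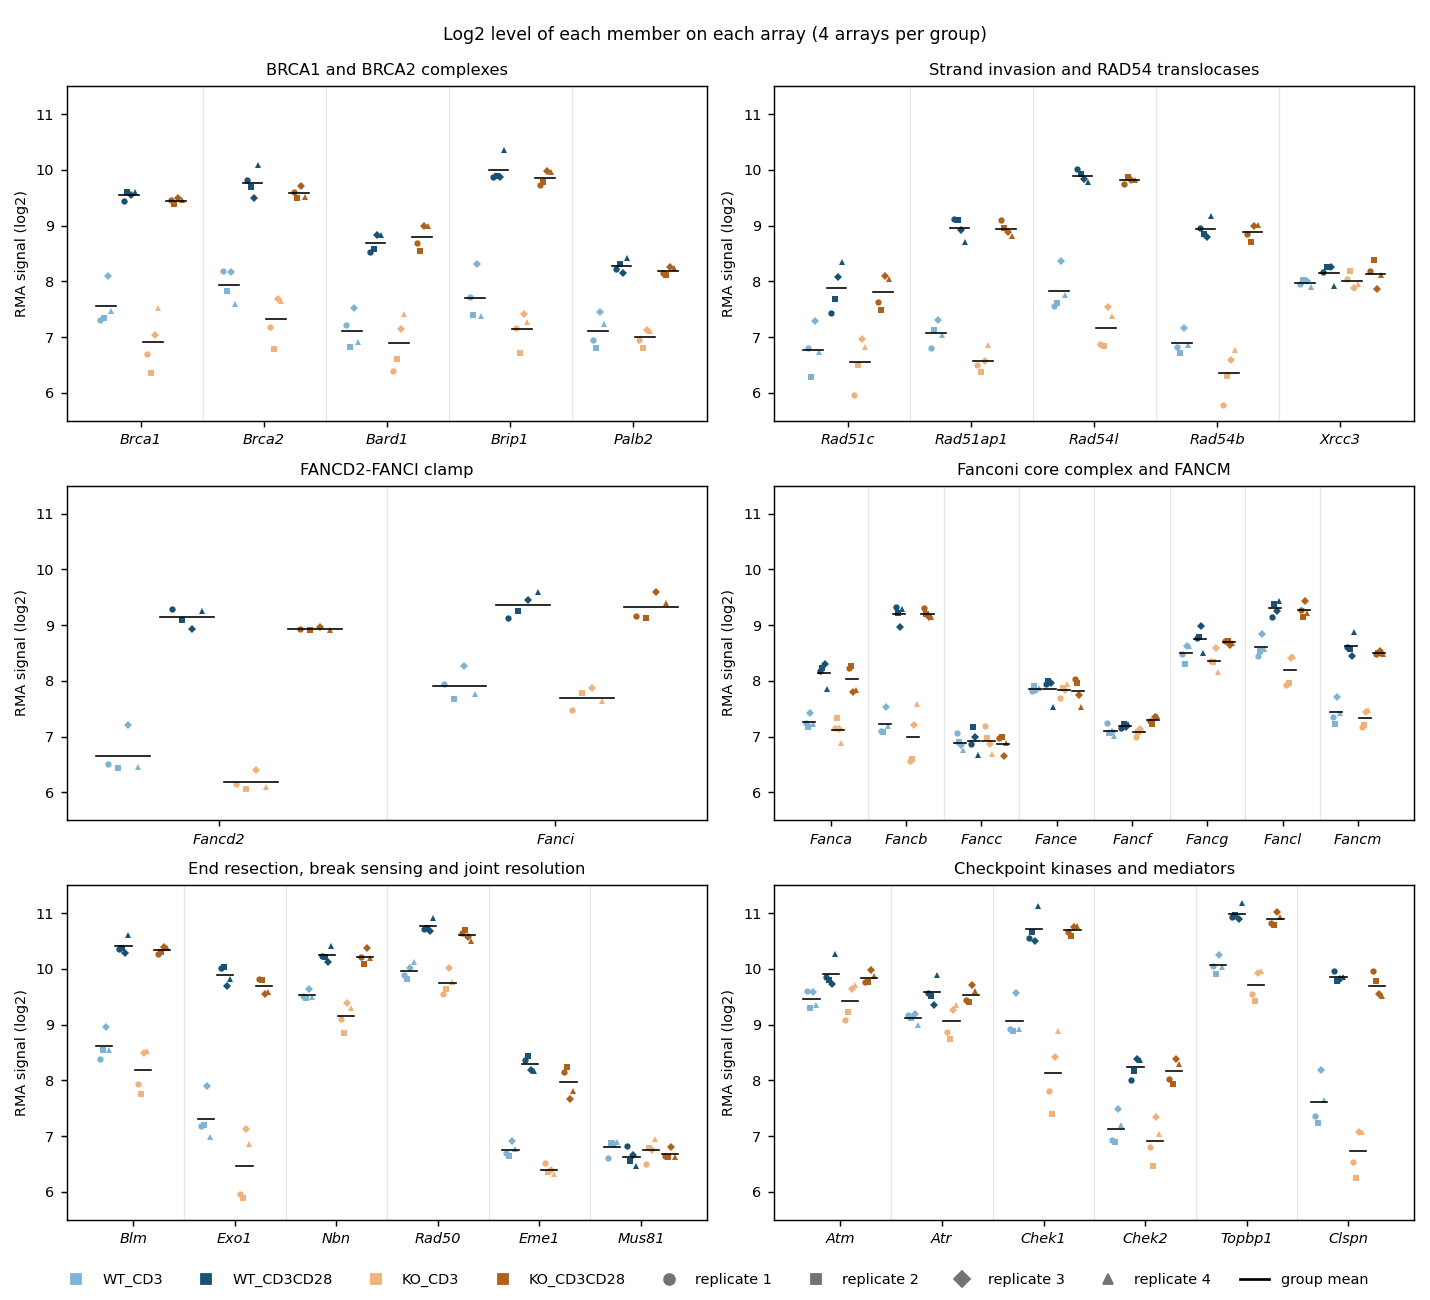
Log2 RMA signal (y axis) of the 32 genes (x axis) on each of the 16 arrays, in 6 panels by role. Colours give the group, symbols the replicate number and black lines the mean of 4 arrays. In 26 genes the dark blue points (WT_CD3CD28) lie wholly above the light blue ones (WT_CD3), while Fancc, Fance, Fancf, Mus81 and Xrcc3 stay within a narrow band.

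All 5 genes of the BRCA1 and BRCA2 complexes rose in wild type, at a median of 1.83. Brca1, whose protein starts end resection and recruits PALB2, was at 7.31, 7.34, 8.10 and 7.46 in WT_CD3 (replicates 1 to 4, as in all lists that follow) and at 9.44, 9.60, 9.56 and 9.61 in WT_CD3CD28. Every costimulated array lay more than 1 log2 unit above every array with anti-CD3 alone, and the difference was 2.0 (SE 0.19, limma adjusted p = 8.77e-07). Brip1, the helicase that binds BRCA1 and is also the Fanconi gene J, went from 7.71, 7.40, 8.31 and 7.38 to 9.87, 9.89, 9.88 and 10.35, a difference of 2.30 (SE 0.19, limma adjusted p = 1.31e-07). Replicate 3 of WT_CD3 was the highest of its group for both genes, and replicate 4 of WT_CD3CD28 for both as well. Brca2, which works with PALB2 on resected ends, rose by 1.83 (SE 0.18), and Bard1, the RING partner of BRCA1, by 1.58 (SE 0.20). Palb2, the link between BRCA1 and BRCA2, rose least of this group, by 1.17 (SE 0.12).

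Bard1 has 3 probe sets, and they rose by 1.58, 1.25 and 1.91 in wild type, so the call does not rest on the one used. Nbn, of the break sensor below, has 2, and they differ. The brighter one rose by 0.71 and the dimmer one was at -0.01 (limma adjusted p = 0.977).

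Of the genes of strand invasion, 4 of 5 rose in wild type (median 1.90). Rad54l, the RAD54 motor that drives strand invasion, was at 7.56, 7.61, 8.36 and 7.76 in WT_CD3 and 10.01, 9.93, 9.84 and 9.77 in WT_CD3CD28, a 4.19-fold rise (log2 2.07, SE 0.17, limma adjusted p = 1.31e-07). Its relative Rad54b rose by 2.06 (SE 0.17) and Rad51ap1, whose protein promotes strand pairing, by 1.90 (SE 0.13). Rad51c, which is also a Fanconi gene, spread more widely within both groups, from 6.28 to 7.28 under anti-CD3 and from 7.43 to 8.34 with anti-CD28, but the groups stayed apart (1.11, SE 0.24, limma adjusted p = 0.00201). Xrcc3, whose protein forms a complex with that of Rad51c, differed by 0.18 (SE 0.11, limma adjusted p = 0.256, 95% interval -0.05 to 0.40) and its groups overlapped.

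The FANCD2-FANCI clamp and the core complex that modifies it moved unequally. Fancd2 was at 6.51, 6.44, 7.21 and 6.46 in WT_CD3 and 9.28, 9.10, 8.94 and 9.25 in WT_CD3CD28, a rise of 2.49 (SE 0.14, limma adjusted p = 2.13e-09) with the smallest p of the 32 genes. Replicate 3 of WT_CD3 stood 0.70 above the next array of its group and still 1.73 below the lowest costimulated array. Its partner Fanci rose by 1.44 (SE 0.14).

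Of 8 genes of the core complex and FANCM, 4 rose in wild type, at a median over all 8 of 0.48. Fancb, an X-linked subunit of the catalytic module, went from 7.09, 7.09, 7.53 and 7.19 to 9.32, 9.21, 8.97 and 9.30 (1.98, SE 0.18, limma adjusted p = 4.31e-07), and in KO_CD3 the arrays with high Xist, replicates 2 and 4, were at 6.59 and 7.58, on either side of the mean. Fancm, the DNA translocase that anchors the complex, rose by 1.19 (SE 0.11), Fanca by 0.88 (SE 0.13) and Fancl, the ubiquitin ligase itself, by 0.70 (SE 0.13). The other 4 were not called. Fancc was at 7.06, 6.91, 6.85 and 6.76 in WT_CD3 and 6.86, 7.17, 7.0 and 6.68 in WT_CD3CD28, and Fance at 7.81, 7.90, 7.84 and 7.88 and 7.94, 7.99, 7.97 and 7.53. Both genes' groups overlapped, with 95% intervals of -0.22 to 0.29 for Fancc and -0.25 to 0.24 for Fance, whose upper ends lie below the rise of any called member. Fancf differed by 0.09 (interval -0.06 to 0.24) and Fancg by 0.25 (limma adjusted p = 0.102). Fancg was called without WT_CD3CD28 replicate 4 (adjusted p = 0.0240), its lowest costimulated array, with array weights (0.0272) and in replicates 1 and 2 alone (0.00899).

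Of 6 genes of end resection, break sensing and joint resolution 5 rose in wild type (median 1.17). Exo1, the exonuclease of long-range resection, had the largest rise of all 32, from 7.17, 7.21, 7.90 and 6.98 to 10.02, 10.03, 9.70 and 9.83, or 5.97-fold (log2 2.58, SE 0.24, limma adjusted p = 4.98e-07). The lowest costimulated array was 1.8 above the highest with anti-CD3 alone. Blm, the helicase lost in Bloom syndrome, which resects ends and dissolves double Holliday junctions, rose by 1.8 (SE 0.15). Rad50 and Nbn, of the complex that first binds broken ends, rose by 0.80 (SE 0.10) and 0.71 (SE 0.11).

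Eme1 and Mus81 form one nuclease, EME1 being the non-catalytic partner and MUS81 the catalytic one, and their transcripts parted. Eme1 was at 6.69, 6.64, 6.92 and 6.76 in WT_CD3 and 8.36, 8.44, 8.18 and 8.17 in WT_CD3CD28 (1.53, SE 0.12, limma adjusted p = 7e-08). Mus81 was at 6.61, 6.88, 6.86 and 6.89 and 6.82, 6.55, 6.67 and 6.46, a difference of -0.19 (SE 0.10, limma adjusted p = 0.204). Its groups overlapped, and its interval of -0.41 to 0.03 lies wholly below that of Eme1, 1.29 to 1.78.

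All 6 checkpoint genes rose in wild type, but by very different amounts (median 1.02). Clspn, the claspin adaptor that brings CHK1 to ATR, went from 7.37, 7.24, 8.18 and 7.64 to 9.96, 9.78, 9.82 and 9.86, or 4.75-fold (log2 2.25, SE 0.20, limma adjusted p = 3.04e-07). Chek1, the kinase CHK1, went from 8.93, 8.89, 9.56 and 8.92 to 10.55, 10.67, 10.50 and 11.13 (1.64, SE 0.24, limma adjusted p = 6.85e-05). Replicate 3 stood high in WT_CD3 for both genes and replicate 4 high in WT_CD3CD28 for Chek1, without overlap between the stimuli.

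Chek2 rose by 1.1 (SE 0.17) and Topbp1, the activator of ATR, by 0.93 (SE 0.12). The apical kinases rose least of the 6. Atr was at 9.17, 9.12, 9.19 and 8.99 in WT_CD3 and 9.56, 9.52, 9.35 and 9.88 in WT_CD3CD28 (0.46, SE 0.13, limma adjusted p = 0.0140). Atm was at 9.61, 9.30, 9.59 and 9.35 and 9.85, 9.80, 9.73 and 10.27 (0.45, SE 0.14, limma adjusted p = 0.0219). The call of Atm was lost without WT_CD3 replicate 2 (0.0698) or 4 (0.0665) or WT_CD3CD28 replicate 4 (0.0740), after quantile normalization (0.0654) and in replicates 3 and 4 alone (0.0661), where Atr was not called either (0.0600).

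**Figure D2:**
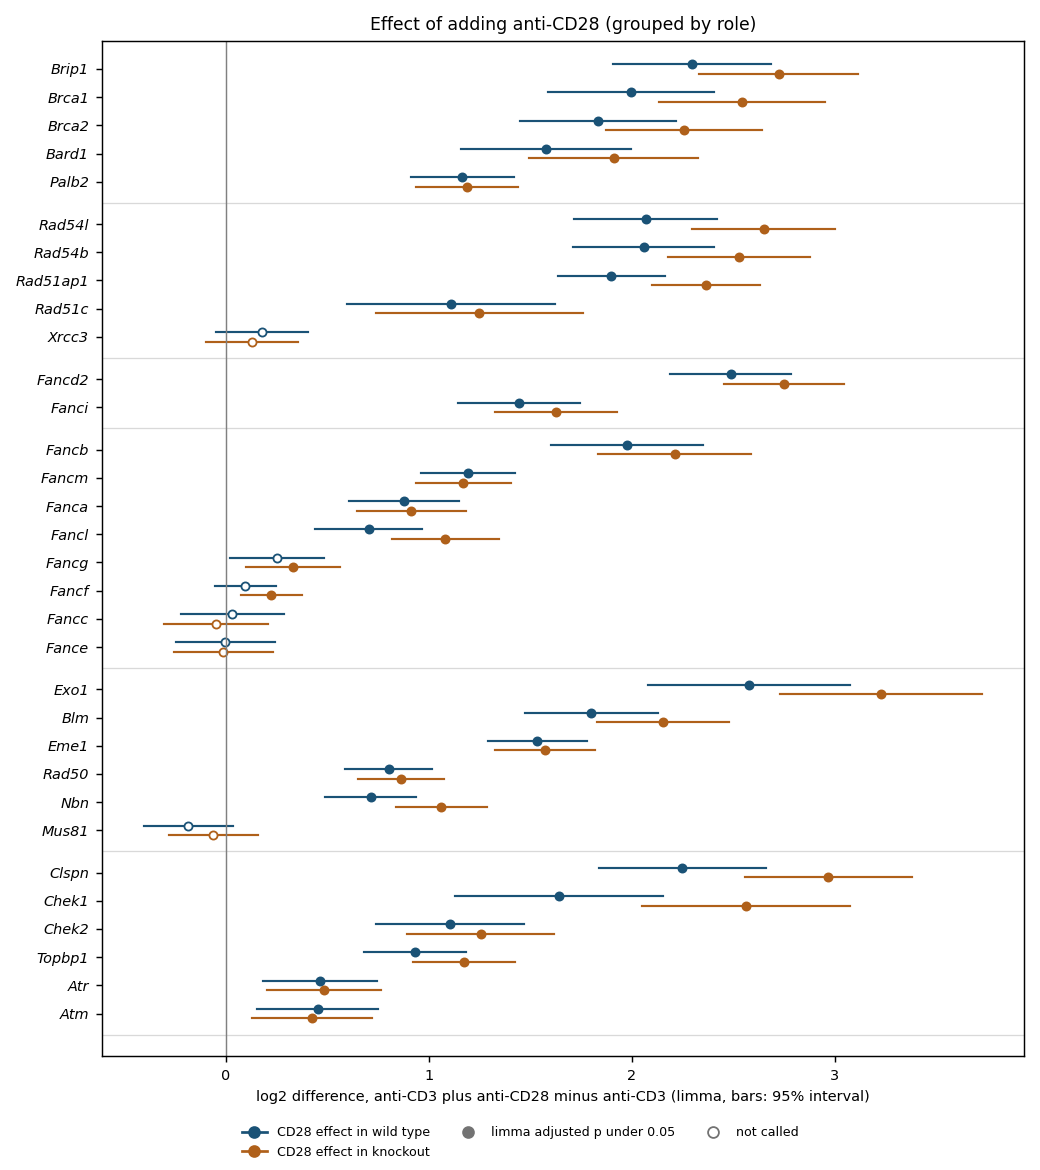
Log2 difference between costimulated and anti-CD3 arrays (x axis) for each gene (y axis, grouped by role), with 95% limma intervals, 4 arrays per group. Filled points have an adjusted p under 0.05. Exo1 lies furthest right at 2.58 in wild type and 3.23 in knockout, and Xrcc3, Fancc, Fance and Mus81 are open in both genotypes.

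The same comparison was made in knockout cells, which share no array with the wild-type one. Of the 32 genes 28 rose and 0 fell, at a median of 1.25 (2.38-fold), against a median of -0.06 over all genes. Over all tested genes 20.4% were called higher and 17.6% lower. Groups did not overlap for 28 genes (87.5%, against 34.9% of all genes), and 22 rose more than 2-fold (4.76% of all genes). All 26 genes called in wild type were called in knockout, where they made up 26 of 28, and 14.7% of all genes were called higher in both. With arrays centred on their medians, the middle of all genes lay at 0.07, and 75% rather than 53.8% of the called genes were then higher.

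The medians by role were 2.36 for the genes of strand invasion, 2.26 for the BRCA1 and BRCA2 complexes, 2.19 for the FANCD2-FANCI clamp, 1.32 for resection and resolution, 1.21 for the checkpoint and 0.62 for the core complex. Exo1 was at 5.96, 5.90, 7.12 and 6.85 in KO_CD3 and 9.81, 9.81, 9.56 and 9.58 in KO_CD3CD28, a 9.38-fold rise (log2 3.23, SE 0.24, limma adjusted p = 2.02e-08) with 2 of the 4 KO_CD3 arrays below the background level. Replicates 1 and 2 of KO_CD3 lay about 1 unit below replicates 3 and 4, whereas with anti-CD28 replicates 1 and 2 were the higher pair by a smaller margin. Clspn went from 6.53, 6.25, 7.07 and 7.08 to 9.96, 9.78, 9.55 and 9.51, a rise of 2.97 (SE 0.20), and Chek1 from 7.80, 7.40, 8.43 and 8.89 to 10.66, 10.60, 10.75 and 10.77, a rise of 2.56 (SE 0.24). In both, replicates 1 and 2 were again the lower pair under anti-CD3.

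Fancd2 was near background in KO_CD3, at 6.15, 6.07, 6.40 and 6.10, and reached 8.94, 8.91, 8.97 and 8.91 with anti-CD28, so its rise, measured at 2.75 (SE 0.14), is given as at least 2.62, or 6.16-fold. Such a bound sets the brighter group against the higher of the background level and the gene's own signal on each array. Here and below it is a difference of means that allows for the background only. It takes no account of the spread between arrays. Brca1 rose by 2.54 (SE 0.19), from 6.70, 6.36, 7.04 and 7.51 to 9.45, 9.38, 9.50 and 9.46. Brip1 rose by 2.72, Rad54l by 2.65, Rad54b by 2.53, Rad51ap1 by 2.36 and Brca2 by 2.26. Within KO_CD3CD28 the 4 arrays of Fancd2 and Brca1 lay within 0.12 of each other.

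Of the genes not called in wild type, Fancf (0.22, SE 0.07, limma adjusted p = 0.0204) and Fancg (0.33, SE 0.11, limma adjusted p = 0.0245) were called in knockout. For neither was a difference between genotypes in the CD28 effect called (interaction 0.13 and 0.08, limma adjusted p = 0.907 and 0.961), which does not show that the effects were equal. Both calls were lost when single arrays were left out: Fancf without KO_CD3 replicate 1 or KO_CD3CD28 replicate 3 or 4 (0.0505 to 0.0609), and Fancg without KO_CD3 replicate 2 or 4 or KO_CD3CD28 replicate 1 or 2 (0.0537 to 0.0793). Both were also lost in replicates 3 and 4 alone (0.211 and 0.351), and Fancf in replicates 1 and 2 alone (0.0962) and when these groups alone were fitted (0.0537). Xrcc3, Fancc, Fance and Mus81 differed by 0.13, -0.05, -0.01 and -0.06 in knockout, with groups that overlapped. Atm (0.42, limma adjusted p = 0.0246) and Atr (0.48, adjusted p = 0.00870) again rose least of the 6 checkpoint genes. Atm lost its call without KO_CD3 replicate 1 (0.0892) or 2 (0.0793) or KO_CD3CD28 replicate 3 (0.0644), after quantile normalization (0.187) and in replicates 3 and 4 alone (0.40), and Atr in the last 2 of these settings (0.0677 and 0.202).

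Other repair pathways were measured on the same arrays, from lists chosen by function, with earlier results of these data known. Of 30 further homologous recombination genes 17 rose and 2 fell in wild type (median 0.42), and 18 rose and 3 fell in knockout (0.46). Those with the smallest p were Polq, the polymerase of an alternative end-joining route (2.09 and 2.25), Parpbp, which restrains recombination (2.61 in wild type), and Rad51b, near background in KO_CD3 (at least 2.03 in knockout). Of 13 further Fanconi genes 5 rose in wild type and 6 in knockout (medians 0.18 and 0.36), with the crosslink nuclease Dclre1a at 0.73 and 1.24, its relative Dclre1b at 0.81 in wild type, and the hemimethylated DNA reader Uhrf1 at 2.47 in knockout. Of 20 further checkpoint genes 10 rose and 1 fell in wild type, and 12 rose and 1 fell in knockout (medians 0.39 and 0.54). Ticrr, which with TOPBP1 fires replication origins, rose by 2.32 and 3.14, and the mitotic phosphatase Cdc25c, which started near background, by at least 2.41 and 2.17.

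The lists of other pathways had smaller medians than the 32 genes. Of 14 genes of non-homologous end joining, which seals breaks without a template, 5 rose in each genotype (medians 0.16 and 0.21). The Ku70 gene Xrcc6 rose by 0.89 in wild type and 1.14 in knockout, Rif1 by 0.80 in wild type, and the Ku80 gene Xrcc5 by 1.24 in knockout. Of 8 mismatch repair genes 5 and 6 rose (medians 0.48 and 0.64), with the ligase Lig1 at 1.23 and 2.04 and Pms1 at 0.89 and 0.90. Of 28 genes of nucleotide and base excision repair 11 rose and 1 fell in wild type, and 14 rose and 2 fell in knockout (medians 0.30 and 0.37).

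Neil3, a glycosylase that also unhooks crosslinks, rose by 2.43 in wild type and at least 2.44 in knockout, and the flap nuclease Fen1 by 1.42 and 2.0. Of 20 p53 target genes 5 rose and 3 fell in wild type, and 5 rose and 4 fell in knockout (medians 0.15 and 0.06). Over all tested genes 16% rose and 13% fell in wild type, and 20.4% rose and 17.6% fell in knockout. Sesn1 fell by 1.26 and 1.40 and Trp53inp1 by 2.04 and 1.99 on the log2 scale. These genes are named because they had the smallest p of the called genes in this list. The activity of p53 was not tested. The differences between lists were not tested.

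**Figure D3:**
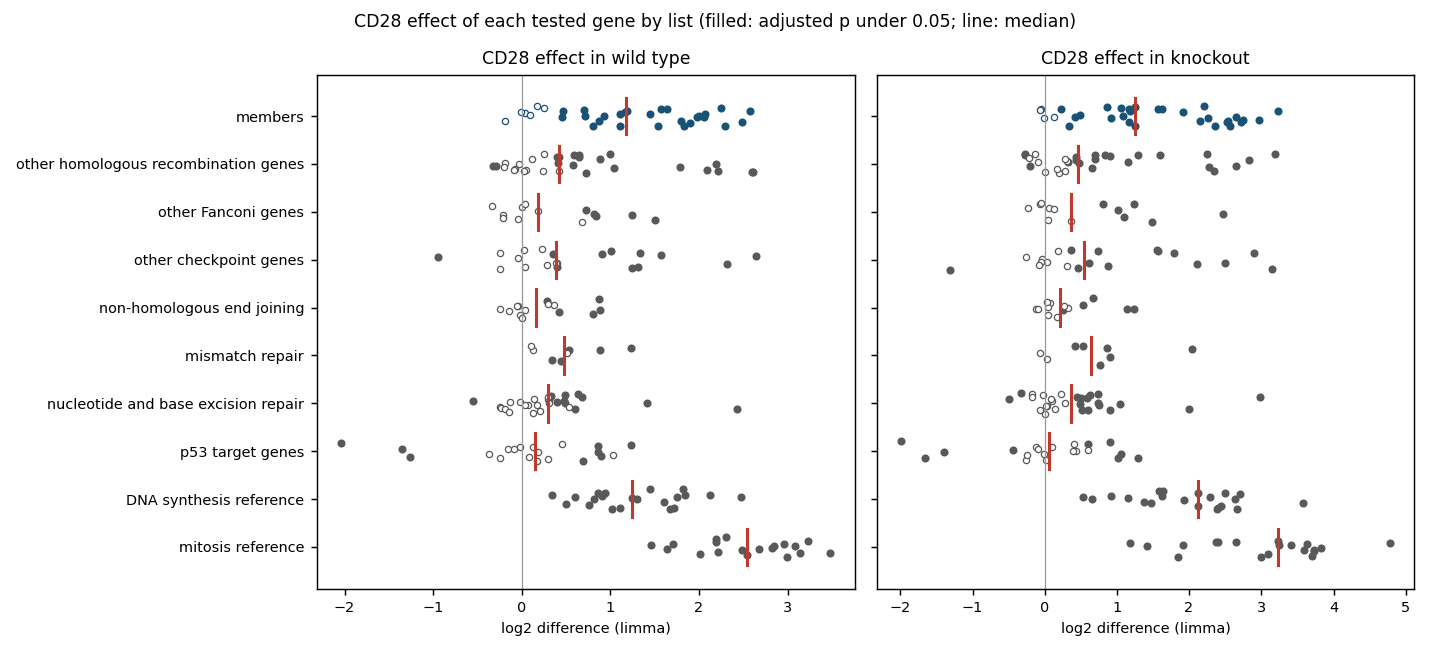
Log2 CD28 effect (x axis) of each tested gene in wild type (left) and knockout (right), by list (y axis). Filled points have a limma adjusted p under 0.05 and red lines are list medians: 1.18 and 1.25 for the 32 genes, 0.16 and 0.21 for non-homologous end joining, and 2.55 and 3.23 for mitosis.

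Genes of the cell cycle moved with the 32. All 21 genes of DNA synthesis rose in both genotypes (medians 1.24 and 2.12), for example the polymerase subunit Pola1 (1.81 and 2.40) and the thymidylate synthase Tyms (1.75 and 2.44). All 19 genes of mitosis rose as well (medians 2.55 and 3.23), with the kinetochore protein Cenpf at 2.96 and at least 2.80 and the kinesin Kif20a at 2.19 and 2.40. The part of cell division in the rise of the repair genes was not tested. Markers of other cells moved too: 4 of 7 tested B cell markers were lower with anti-CD28 in each genotype, as were 4 and 6 of 11 myeloid and dendritic markers, 7 and 5 of 11 T cell identity genes, and 0 and 1 of 3 erythroid and platelet markers. Of 6 CD8 and NK cell markers 4 were higher and 2 lower in each genotype. The mean level of the B cell list was 6.22 to 6.32 in WT_CD3 and 5.77 to 5.99 in WT_CD3CD28, with 6 of its 9 genes near background in the latter. The part of these markers in the results was not tested.

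**Figure D4:**
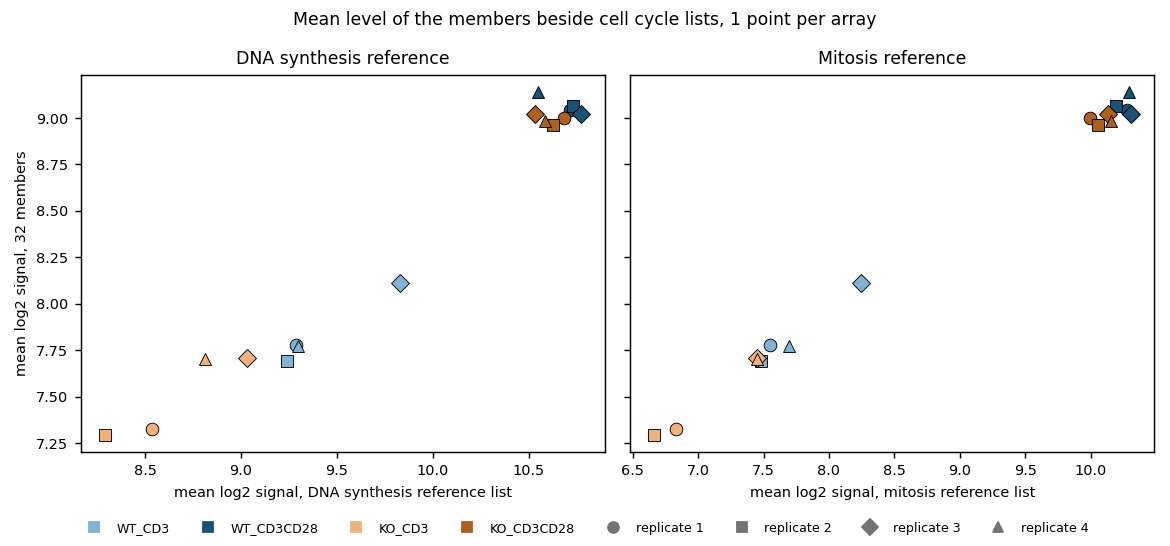
Mean log2 signal of the 32 genes (y axis) against that of the DNA synthesis list (left x axis) and the mitosis list (right x axis), 1 point per array, coloured by group with symbols for the replicate number. Costimulated arrays cluster between 8.96 and 9.14 on the y axis, and the anti-CD3 arrays spread from 7.30 to 8.11, with WT_CD3 replicate 3 highest and KO_CD3 replicates 1 and 2 lowest.

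In the 32 genes the KO_CD3 arrays differed among themselves more than the KO_CD3CD28 arrays did, and in wild type the same order rested on 1 array. The mean of the 32 genes was 7.78, 7.69, 8.11 and 7.77 in WT_CD3 and 9.04, 9.06, 9.02 and 9.14 in WT_CD3CD28. It was 7.33, 7.30, 7.71 and 7.70 in KO_CD3 and 9.0, 8.96, 9.02 and 8.98 in KO_CD3CD28. The SD was therefore 0.19 and 0.05 in wild type and 0.23 and 0.02 in knockout. Without WT_CD3 replicate 3 the SD of that group was 0.05, while KO_CD3 stayed at 0.22 to 0.24 without any 1 of its arrays.

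Replicate 3 of WT_CD3 was the highest of its group for 24 of the 32 genes. In KO_CD3, replicate 3 or 4 was highest for 13 and 15 genes and replicate 1 or 2 lowest for 12 and 15. Gene by gene, 22 of 32 had a larger SD under anti-CD3 than with anti-CD28 in wild type (38.9% of all genes) and 27 of 32 in knockout (60.3% of all genes). The mitosis list showed the same arrays at its ends: 7.55, 7.48, 8.25 and 7.69 in WT_CD3 and 6.83, 6.66, 7.45 and 7.45 in KO_CD3. Its part in the spread was not tested.

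The next comparison asked what the loss of DEC1 changed under anti-CD3 alone. Knockout cells were lower than wild type in 30 of the 32 genes by the sign of the difference, at a median of -0.23, while 44.6% of all genes had a negative difference and the median of all genes was 0.03. The background level was 6.19 to 6.35 on the KO_CD3 arrays and 6.02 to 6.08 on the WT_CD3 arrays. With arrays centred on their medians, the median of all genes was -0.06 and that of the 32 genes -0.32. The part of this difference in scale was not tested. The median of the 32 was -0.37 without KO_CD3 replicate 4, -0.36 without KO_CD3 replicate 3 and -0.35 without WT_CD3 replicate 2, and ran from -0.28 to -0.17 without any other array. Only 1 of the 32, Clspn, was called lower, and 0.749% of all genes were. At an unadjusted p under 0.05 there were 16 of 32, against 24.3% of all genes. Groups did not overlap for 5 genes (15.6%: Rad54l, Fancd2, Nbn, Eme1 and Clspn), close to the 14.7% of all genes. With the replicate number as a block 15 of the 32 were called lower (46.9%), against 6.56% of all genes.

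Clspn was at 7.37, 7.24, 8.18 and 7.64 in WT_CD3 and 6.53, 6.25, 7.07 and 7.08 in KO_CD3. All wild-type arrays were above all knockout arrays, though WT_CD3 replicate 2 exceeded the highest knockout array by only 0.16. The difference was -0.87 (SE 0.20, limma adjusted p = 0.0436, and 0.0123 with the replicate block). The call was lost without WT_CD3 replicate 1 (0.0787), 3 (0.168) or 4 (0.0718), KO_CD3 replicate 1 (0.0810) or 2 (0.142), WT_CD3CD28 replicate 1, 2 or 3 or KO_CD3CD28 replicate 2, 3 or 4 (0.0521 to 0.0609), and when the anti-CD3 arrays alone were fitted (0.0966).

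Chek1 had the largest difference and was not called without the block or another change to the fit. Its levels of 8.93, 8.89, 9.56 and 8.92 in WT_CD3 overlapped those of 7.80, 7.40, 8.43 and 8.89 in KO_CD3 through knockout replicate 4. The difference was -0.94 (SE 0.24, limma adjusted p = 0.0665, and 0.0140 with the block). Chek1 also gained a call with median centring (0.0490) and array weights (0.00917). The same held without KO_CD3 replicate 3 (0.0466) or 4 (0.0180) and in replicates 1 and 2 alone (0.00046). Exo1, at 7.17, 7.21, 7.90 and 6.98 in WT_CD3, differed by -0.86 (SE 0.24, limma adjusted p = 0.0775, and 0.0303 with the block). Its knockout replicates 1 and 2, at 5.96 and 5.90, lay below every wild-type array and below the background levels of 6.21 and 6.27, so the size of the difference is uncertain. Replicate 3 lay within the wild-type range.

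Rad54l was at 7.56, 7.61, 8.36 and 7.76 in WT_CD3 and 6.87, 6.84, 7.55 and 7.38 in KO_CD3, without overlap (-0.66, SE 0.17, limma adjusted p = 0.0628, and 0.0156 with the block). Brca1 differed by -0.65 (SE 0.19; limma adjusted p was 0.0927, or 0.0264 under the block), and here knockout replicate 4 exceeded 3 of the 4 wild-type arrays. Fancd2 differed by -0.47, with its knockout level near background (limma adjusted p = 0.0909, and 0.0348 with the block). Counted against the background level its means lay 0.35 apart, a value that takes no account of the spread between arrays. The other genes called with the block were Brca2, Brip1, Rad51ap1, Rad54b, Fancl, Blm, Nbn, Topbp1 and Eme1, with differences of -0.61 to -0.34 and adjusted p from 0.0228 to 0.0475. Thus the genes called with the block came from every role, with 1 of 8 from the core complex.

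The genes that CD28 left uncalled in both genotypes were also near 0 here: Xrcc3 at 0.04, Fancc at 0.03, Fance at -0.03 and Mus81 at -0.07, with 95% intervals within -0.28 and 0.29. Comparisons under anti-CD3 and with anti-CD28 share the anti-CD3 arrays, so these values are side by side and not independent. Atm (-0.05) and Atr (-0.06) had limma adjusted p of 0.853 and 0.794, and 0.816 and 0.749 with the block.

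The 2 pairs of replicate numbers differed. In replicates 1 and 2 alone, 16 of the 32 genes were called lower in knockout cells (50%), against 6.57% of all genes, with Chek1 at -1.30, Brca2 at -1.02 and Clspn at -0.91. Exo1 was at least 0.95 lower, counted against the background level because both its KO_CD3 arrays lay below it. In replicates 3 and 4 alone 0 of 32 and 0% of all genes were called, with Clspn at -0.84 (limma adjusted p = 0.199), Chek1 at -0.58 and Exo1 at -0.45. The values of Clspn in the 2 pairs lay close to each other and those of Chek1 and Exo1 further apart, and the difference between the pairs was not tested. Within number pairs, 14 of 32 genes were lower in knockout in all 4 pairs, against 17.8% of all genes. In numbers 1, 2 and 4 Xist was high in 1 genotype and low in the other. Neither these pairs nor the replicate block therefore match the sex of the samples, and the part of sex was not tested. Over all 4 replicates the lists of DNA synthesis and mitosis were lower too, with 9 of 21 and 2 of 19 genes called and medians of -0.75 and -0.74. Also called lower were 3 of 20 further checkpoint genes, 2 of 13 further Fanconi genes, 2 of 28 excision repair genes and 1 of 8 mismatch repair genes. Of 30 further homologous recombination, 14 end-joining and 20 p53 target genes 0 were called. The part of these lists in the result was not tested.

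**Figure D5:**
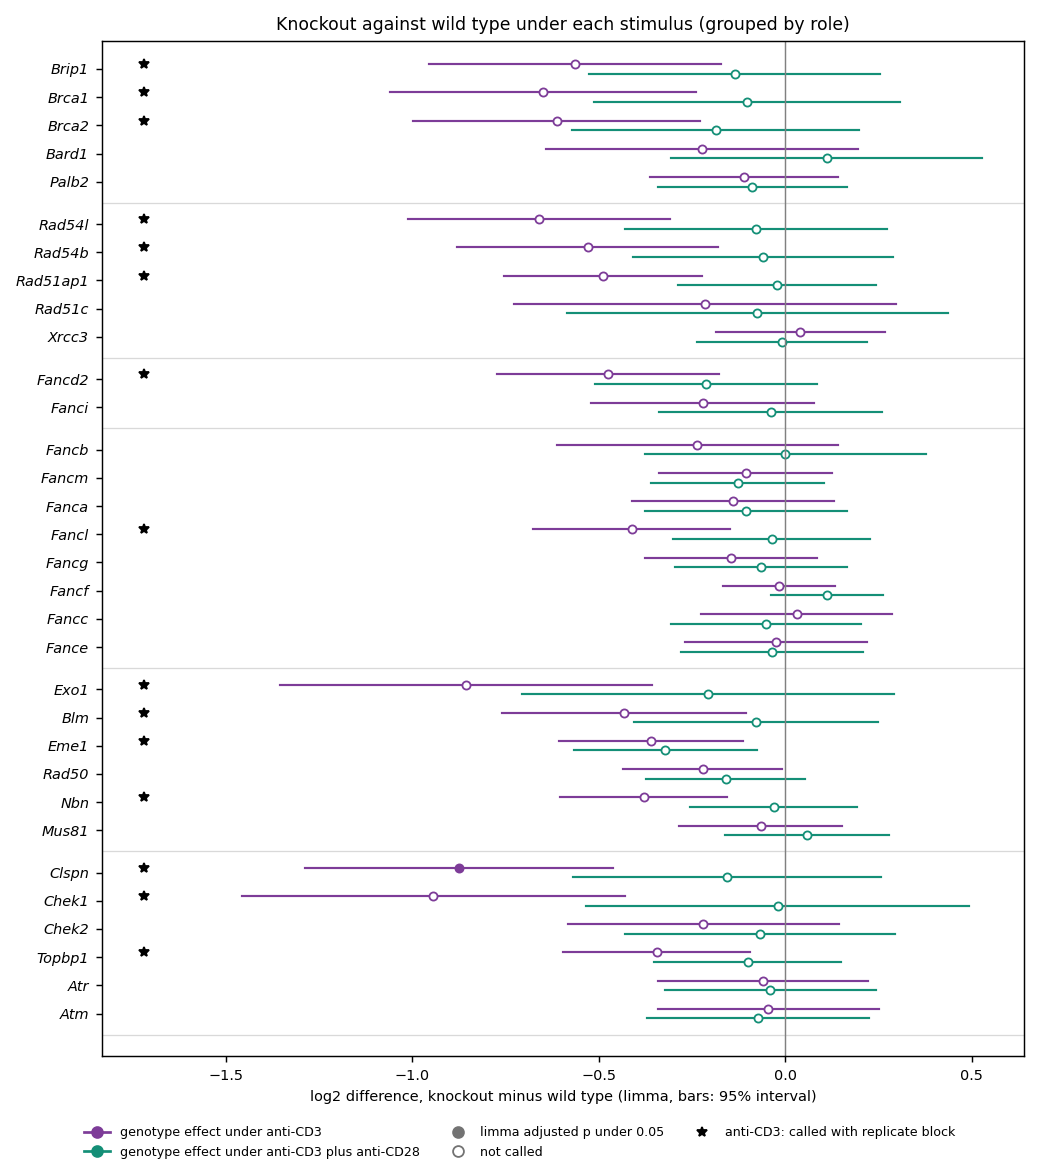
Log2 difference between knockout and wild type (x axis) for each gene (y axis, grouped by role) under anti-CD3 (purple) and under anti-CD3 plus anti-CD28 (green), with 95% limma intervals and 4 arrays per group. Clspn at -0.87 is the 1 filled point, stars at the left mark the 15 genes called under anti-CD3 with the replicate block, and the green points lie between -0.32 and 0.11.

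Bard1 shows how far a probe set can decide such a value. The one used differed by -0.22 under anti-CD3, another by 0.23, and the third by -0.57 (limma adjusted p = 0.475, 0.345 and 0.0416). Of the 2 probe sets of Nbn, the one used differed by -0.38 and the other by 0.11 (adjusted p = 0.0780 and 0.493).

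With anti-CD28 added, no member passed the test between knockout and wild type. By limma 0 of the 32 genes were called, and 0.00609% of all genes were, which is Bhlhe40 alone. The median was -0.07, and 1 gene had an unadjusted p under 0.05, against 3.32% of all genes. That gene was Eme1, at 8.36, 8.44, 8.18 and 8.17 in WT_CD3CD28 and 8.14, 8.25, 7.66 and 7.81 in KO_CD3CD28 (-0.32, SE 0.12, unadjusted p = 0.0136 and adjusted p = 0.999 in limma). Its knockout replicate 2 lay among the wild-type arrays and replicates 1, 3 and 4 below all of them. Groups did not overlap for 1 gene, Fancf (3.12%, against 2.75% of all genes), which was 0.11 higher in knockout.

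Chek1 and Clspn, the largest differences under anti-CD3, were at -0.02 (95% interval -0.53 to 0.49) and -0.16 (-0.57 to 0.26) here. Exo1 was at -0.21 (-0.70 to 0.29) and Brca1 at -0.10 (-0.51 to 0.31). The change in the genotype difference from one stimulus to the other is tested next.

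The difference between the genotypes in their CD28 effect was tested directly as an interaction. For 27 of the 32 genes the CD28 effect was larger in knockout, at a median of 0.21, while 49.7% of all genes had a negative difference and the median of all genes was 0.001. The median of the 32 was 0.11 without KO_CD3 replicate 1 and 0.12 without WT_CD3 replicate 3, and 0.14 to 0.30 without any other array. Of the 32, 0 were called, and 0% of all genes were. At an unadjusted p under 0.05 there were 6 of 32, against 5.28% of all genes: Chek1 (0.92, SE 0.34), Clspn (0.72, SE 0.28), Rad54l (0.58, SE 0.24), Rad51ap1 (0.47, SE 0.18), Fancl (0.38, SE 0.18) and Nbn (0.35, SE 0.15). Limma's adjusted p ran from 0.905 to 0.994 over the 32 genes, and with the replicate block 8 had an unadjusted p under 0.05 and 0 were called. In the DNA synthesis list the effect was larger in knockout for 21 of 21 genes (median 0.69), 14 with an unadjusted p under 0.05. In the mitosis list it was larger for 16 of 19 (median 0.50), 7 with such a p. In both lists 0 genes were called, and their part in the result was not tested. In replicates 1 and 2 alone 2 of 32 were called (6.25%), against 0.45% of all genes: Chek1 at 1.32 (limma adjusted p = 0.0153), and Exo1, whose size is not given because both its KO_CD3 arrays lay below the background level (adjusted p = 0.00786).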

How the data were processed

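Gene expression was measured on Affymetrix mouse arrays in 16 samples, 4 in each of 4 groups taken from the sample titles. The deposited values are log2 signals that the authors made with RMA (background correction, quantile normalization and probe set summary), per the submitters' processing notes. The sources used here give neither its version nor the build of the array design. The table holds 35556 probe sets, of which 21789 have 1 gene symbol in the platform annotation, and 1621 several, from which no gene was named.

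Dim probe sets, those above the 25th percentile of the array on fewer than 4 arrays, were left out, and the one with the highest mean stood for its gene. limma 3.58.1 (R 4.3.3) fitted a mean per group over all 16 arrays (12 residual degrees of freedom), with moderated variances and Benjamini-Hochberg adjustment over 16427 genes in each of 5 comparisons. The fit was checked on simulated data with noise drawn independently for each array. That check does not cover deviations that samples of the same replicate number share. All listed members are named; from each other list the 2 called genes with the smallest p in each CD28 comparison and in the interaction are named, besides Bhlhe40. The members and lists were chosen with earlier results of these data known.

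Samples with the same replicate number deviated together: correlations of their deviations from the group means were 0.16 to 0.37 across stimuli in wild type and 0.22 to 0.51 in knockout, and 0.18 to 0.45 across genotypes under anti-CD3 and 0.20 to 0.59 with anti-CD28, so a fit with the number as a block is given where it changes a call. The separation of replicates 1 and 2 from 3 and 4 can raise these values. Alternatives covered scaling, filter, probe choice, variance model, array weights, the block, the arrays fitted, each array left out and each set of numbers. Promoter windows are RefSeq's on GRCm38.p6. Python 3.11.15, pandas 2.3.3 and matplotlib 3.10.9 made counts and figures.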

Additional observations from a re-analysis of the deposited data

Results flagged for a closer look

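In 6 of 128 groups of 4 arrays (32 genes in 4 groups) 1 array stood apart from the other 3 by Dixon's criterion, and chance gives about 1 in 20 groups, or 6.4 of 128. In WT_CD3, replicate 3 was high for Chek1 at 9.56 (the others at 8.89 to 8.93) and for Fancd2 at 7.21 (the others at 6.44 to 6.51), and replicate 1 was low for Mus81 at 6.61 (the others at 6.86 to 6.89). In WT_CD3CD28, replicate 4 was high for Brip1 at 10.35 (the others at 9.87 to 9.89) and low for Fance at 7.53 (the others at 7.94 to 7.99). In KO_CD3CD28, replicate 3 was high for Mus81 at 6.81 (the others at 6.63 to 6.65).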

How the results depend on the processing

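Over 27 alternatives CD28 raised 24 to 27 members in wild type and 24 to 28 in knockout, with medians of 1.09 to 1.34 and 1.17 to 1.39, and 0 members were called lower in any of them. The genotype difference under anti-CD3 was the result that moved most: from 1 called member to 4 with median centring, 2 after quantile normalization, 12 with array weights, 15 with the replicate block, 16 in replicates 1 and 2 alone, 0 in replicates 3 and 4 alone and 0 when the compared groups alone were fitted, and 0 to 6 when single arrays were left out (6 without KO_CD3 replicate 3, 4 without KO_CD3 replicate 4). The median of the members in that comparison ran from -0.39 (array weights) to -0.17 over the 27, and that of the interaction from 0.11 to 0.31. The cause was not tested. Fits of fewer samples also hold fewer arrays, and the part of that was not tested either. With anti-CD28 0 members were called in all 27. The interaction was called for 2 members in replicates 1 and 2 alone and for 0 in the 25 other settings. The replicate block changed no call of the CD28 effects, of the genotype difference with anti-CD28 or of the interaction. Of 4288 alternative values of single members 4193 kept their call or lack of one, 58 gained a call, 37 lost one and 0 reversed. Signals near background (Fancd2 in KO_CD3) limit the size of a fold.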
